A study of Danio rerio with 6 samples.

Results

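Core histone genes were examined by histone type in zebrafish embryos in which the promoter of the lncRNA gene *dancr* had been deleted. Members were all genes whose description in the deposited table carries the Pfam domain PF00125, the core histone fold, and there were 96 of them among 31953 genes. By name or description, 35 are H2A genes, 30 are H2B genes and 28 are H3 genes, and 3 carry the name of another protein. A total of 80 members lie on chromosomes 7 and 25 and 16 lie elsewhere in the genome. H4 genes are not among the members, because the table describes them with a different domain, PF15511, so the domain chosen covers only part of the core histones. The 28 H4 genes and the 20 genes with a linker histone (H1) domain are therefore given separately. This contrast and these groupings were picked with earlier results of the same libraries known, so every difference between the groups below is a description.

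RNA was taken from whole embryos at 30 hpf, and AB is the wild type strain of the study. *dancr* del F0 crispants had received Cas9 ribonucleoprotein with a pool of 4 guide RNAs against the *dancr* promoter at the one-cell stage, and mock control embryos had received the injection mixture without the *dancr* crRNA. About 30 embryos were used in each group, and there were 3 libraries of each. F0 crispants are mosaic, the sequenced crispants were embryos of the visibly abnormal Class I and Class II, and a whole embryo holds every tissue, so that fewer cells of a type and less RNA per cell cannot be told apart. The study describes the 3 libraries of a group as biological replicates. The libraries were made from RNA selected on poly(T) beads.

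Nucleosomes are built from H2A, H2B, H3 and H4. Most of this protein is made in S phase from replication-dependent genes that stand in many near-identical copies in clusters. Their mRNAs lack introns and, in place of a poly(A) tail, end in a stem-loop that is bound by the stem-loop binding protein Slbp. A second set of genes, scattered singly through the genome, encodes replacement variants such as H3.3, H2A.Z, H2A.X and macroH2A, most of them with introns and a poly(A) tail, and these are made throughout the cell cycle. A library selected on poly(A) therefore samples the replacement genes well and sees the replication-dependent genes through whatever fraction of their transcripts carries a tail or escapes the selection.

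Between 33841805 and 40515803 reads were counted on genes per library. Mock control replicate 3 stood apart from the other 5 libraries. Its TMM factor, which corrects library totals for uneven composition, was 0.749 against 0.988 to 1.14, and 33.4% of its counts fell on its top 100 genes, against 24.2 to 26.9% in the others. Values without this library are given beside those whose direction or size depended on it most. Of 45 marker genes for muscle, heart, lens, nervous system, blood, endothelium, epidermis, pigment cells, myeloid cells, notochord, germ cells and oocytes, 43 were above 0 in every library, and the exceptions were the oocyte markers *zp2.1* and *buc*. As a check of the labels, *snora26*, a snoRNA hosted by *dancr*, had 22, 8 and 16 counts in mock controls and 0, 7 and 4 counts in crispants.

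The 80 members on chromosomes 7 and 25 fall into 4 arrays when genes no more than 500000 bases apart are joined (coordinates of GRCz10). One array on chromosome 7 runs from 5782413 to 6328435 and holds 23 members, 10 of them H2A, 7 H2B and 6 H3. The other runs from 73590418 to 73636124 and holds 12, with 3 H2A, 5 H2B and 4 H3. On chromosome 25 the first array runs from 34509159 to 34677389 with 29 members, of which 8 are H2A, 12 are H2B, 8 are H3 and 1 is *ano9a*. The second runs from 35761614 to 35820573 with 16 members, 7 of them H2A, 4 H2B and 5 H3. All 3 histone types are thus interleaved in each array. Gene models here are short. The commonest length was 387 bases for H2A (17 of 28 genes), 375 bases for H2B (12 of 28) and 411 bases for H3 (15 of 23), which are lengths of coding sequences without UTRs. Names repeat as well, since 50 of these 80 members share their name with another member, so identifiers are given where a single copy is meant.

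The clustered members had few counts. Their summed counts, in the order of replicates 1, 2 and 3, were 993, 1322 and 1229 in the mock control libraries. In the crispant libraries they were 3316, 3617 and 2876. These sums and the CPM below include *ano9a*, which is not named as a histone gene. It gave 159, 31 and 80 of the mock control counts and 112, 21 and 102 of the crispant counts. Scaled to CPM, the counts per 1000000 of TMM-adjusted library totals, the sums were 27.5, 34.4 and 43.0 CPM in mock controls and 89.9, 90.4 and 69.8 CPM in crispants. All crispant libraries were above all mock control libraries, and the lowest crispant sum was 1.62 times the highest mock control sum. The group means were 35.0 ± 7.77 CPM (SD, n = 3) and 83.4 ± 11.8 CPM (SD, n = 3), a ratio of 2.38 and a log2 ratio of 1.25. With each library left out in turn the log2 ratio lay between 1.104 and 1.44, the highest value being that without mock control replicate 3. A sum over copies does not depend on how reads that fit several near-identical copies were shared out among them, whereas a value for a single copy does. How such reads were treated is not given in the sources used here. If they were left out of the counts, the sums lack them as well.

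The 16 members elsewhere were counted far more often and did not follow this pattern. Their sums were 3050, 3527 and 5947 CPM in mock control libraries and 3027, 3658 and 2649 CPM in crispants. The groups overlapped and the highest sum was that of mock control replicate 3. The means were 4175 ± 1553 CPM and 3111 ± 509.5 CPM (SD, n = 3 each), a ratio of 0.75. On the log2 scale this is -0.42, and without mock control replicate 3 it was -0.07. Of all counts on H2A, H2B and H3 members, the clustered genes took 0.78, 0.97 and 0.68% in mock control replicates 1, 2 and 3 and 2.88, 2.47 and 2.57% in crispant replicates 1, 2 and 3. These shares compare histone genes within a library, so library scaling does not enter them, and the groups did not overlap.

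**Figure D1:**
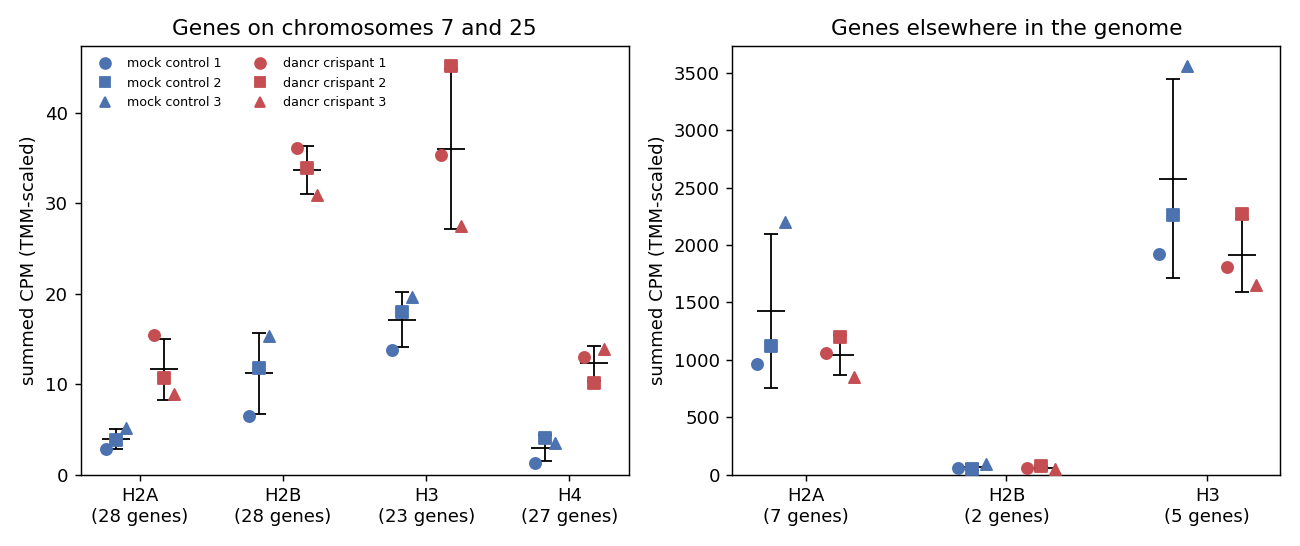
Summed CPM per library of H2A, H2B, H3 and, for comparison, H4 genes on chromosomes 7 and 25 (left) and of H2A, H2B and H3 genes elsewhere (right), on linear axes of different range. Each symbol is 1 of the 3 mock control or 3 crispant libraries and the black bars give mean and SD. On the left all crispant libraries lie above all mock control libraries in each type, and on the right the groups overlap, with mock control replicate 3 the highest.

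The 3 histone types of the clusters were each higher in crispants. Clustered H2A genes summed to 2.88, 3.86 and 5.14 CPM in mock control libraries and to 15.4, 10.7 and 8.88 CPM in crispants, with means of 3.96 ± 1.14 and 11.7 ± 3.37 CPM and a ratio of 2.94. H2B, which pairs with H2A in the dimers that flank the H3–H4 core, summed to 6.48, 11.8 and 15.4 CPM in mock control libraries and to 36.2, 33.95 and 30.9 CPM in crispants. Its means were 11.2 ± 4.47 and 33.7 ± 2.64 CPM, a ratio of 3.01. Clustered H3 genes summed to 13.7, 18.0 and 19.7 CPM against 35.3, 45.2 and 27.5 CPM, with means of 17.1 ± 3.07 and 36.0 ± 8.89 CPM and a log2 ratio of 1.07 (SD, n = 3 in each case). None of the 3 types overlapped between the groups, and the ratio was lowest for H3. H3 took 59.5, 53.5 and 49.0% of the clustered H2A, H2B and H3 counts in mock control libraries and 40.6, 50.3 and 40.8% in crispants. These shares overlapped, so the smaller ratio of H3 is not separated from the spread between libraries.

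Replacement and other scattered genes of the same types did not share this difference. The 7 H2A genes elsewhere summed to 965.7, 1119 and 2198 CPM in mock control libraries and to 1062, 1203 and 854.6 CPM in crispants, a ratio of 0.73. For the 5 H3 genes elsewhere the sums were 1922, 2258 and 3559 CPM against 1810, 2269 and 1652 CPM, a ratio of 0.74. The 2 H2B genes elsewhere, of which *hist2h2l* gave nearly all counts, summed to 55.5, 51.6 and 96.7 CPM against 56.2, 75.4 and 46.1 CPM, a ratio of 0.87. In each of these 3 groups the highest library was mock control replicate 3, and the groups overlapped. Without that library the ratios were 1.01 for H2A, 0.92 for H3 and 1.11 for H2B. The direction of H2B thus turned, H2A was about level and only H3 stayed below 1.

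Gene by gene, 79 of the 80 clustered members had at least 1 count. In 50 of these 79 every crispant library was above every mock control library, and in 0 of them all crispants were below. Over all 27011 genes with any count, 6.12% were higher and 4.67% were lower by the same measure. With total counts as library size the number was 56, beside 9.92% of all genes. Without mock control replicate 3 it was 60 of 79 against 13.3% of all genes. Over the 6 fits that leave out 1 library it ran from 52 to 60, beside shares of 9.43 to 13.3% of all genes. The group mean was higher in crispants for 76 of 79 members, and for 48.6% of all genes. By type, all crispant libraries were above all mock control libraries for 14 of 28 H2A, 23 of 27 H2B and 13 of 23 H3 genes. Because the location was chosen on this contrast, nothing is read from these counts beyond their size.

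Counts per clustered gene were too small for most single copies to be judged. The mean count over the 6 libraries ran from 0 to 272.8, with a median of 15, and 9 members had a mean of at least 50. The filter on low counts left 49 of 80 clustered members in the gene-by-gene comparison, and 10 of these passed it through the crispant libraries alone, so that they had to differ. The threshold was an adjusted p no higher than 0.05 and an absolute log2 fold change of 1 or more, and past it edgeR's quasi-likelihood test (Benjamini-Hochberg adjustment) called 0 members and 0.0% of all 20812 genes tested. Its smallest adjusted p among the members was 0.264. At an unadjusted p under 0.05, 29 of the 49 clustered members lay on the higher side and 0 on the lower, beside 3.01% and 2.47% of all genes tested. Some of the 29 were among the 10 that had to differ, so the filter set their direction and nothing is read from this count. DESeq2 on the same counts called 6 clustered members, all higher, beside 0.567% of all genes on that side and 0.202% on the lower side. Without mock control replicate 3, edgeR called 20 genes in all, 0.0888% of genes on the higher side and 0.00468% on the lower, and 0 members.

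**Figure D2:**
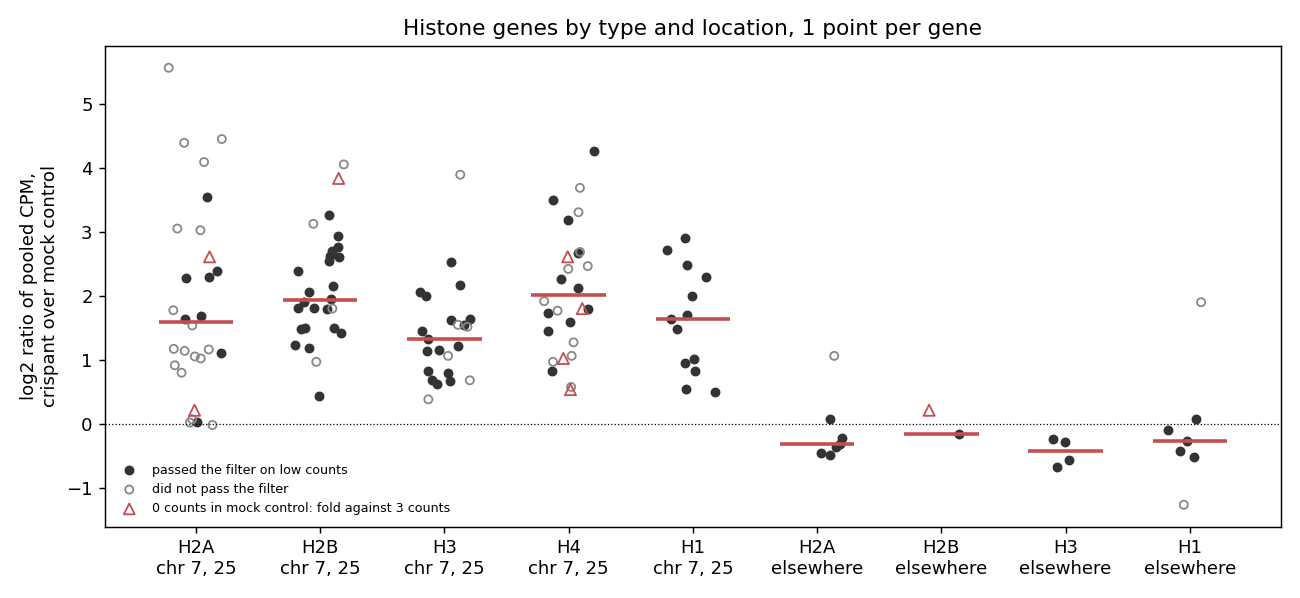
Log2 ratio of crispant to mock control CPM for each histone gene with counts, by type and location, with counts and adjusted library totals pooled over the 3 libraries of each group. Filled points passed the filter on low counts, open points did not, triangles had 0 mock control counts and are set against 3 counts, and red lines are medians over the points without triangles, which lie at 1.59, 1.93 and 1.33 for H2A, H2B and H3 genes on chromosomes 7 and 25 and at -0.31, -0.15 and -0.42 elsewhere.

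Among the clustered genes with at least 50 counts on average, the clearest separation was that of an H2B gene named *wu:fe11b02* (ENSDARG00000087854, chromosome 25, 34553130 to 34553504, plus strand). Mock control replicates 1, 2 and 3 gave 17, 29 and 24 counts, against 129, 139 and 151 counts in the crispants. The means were 0.689 ± 0.193 and 3.54 ± 0.103 CPM, and the log2 fold change was 2.36 (standard error, SE, 0.40). The crispant libraries of this gene were close together and far above the mock control libraries. A further H2B gene, *si:ch211-113a14.22* (ENSDARG00000039547, chromosome 25, 35797407 to 35797781), had 3, 20 and 13 counts against 136, 109 and 69 counts, a log2 fold change of 2.92 (SE 0.68). The H3 gene *zgc:173552* (ENSDARG00000091525, chromosome 7, 73630902 to 73631312, minus strand) had 79, 86 and 33 counts against 148, 229 and 193 counts, a log2 fold change of 1.36 (SE 0.39). Of the 9 clustered members with a mean of at least 50 counts, these 3 were the only ones whose groups did not overlap. Over all genes with any count, whatever their mean, 6.12% were higher and 4.67% lower without overlap.

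The 6 members called by DESeq2 include both of these H2B genes and were picked out with their values in view. The H2B gene *si:dkey-108k21.17* (ENSDARG00000092743, chromosome 25, 34562360 to 34562734) had 3, 13 and 5 counts in mock control libraries and 101, 65 and 65 counts in crispants, a log2 fold change of 3.28 (SE 0.62). *zgc:113984* (ENSDARG00000103493, chromosome 7, 6209243 to 6209653), an H3 gene, had 7, 16 and 10 counts against 54, 67 and 49 counts. *si:ch211-113a14.19* (ENSDARG00000074260, chromosome 7, 73623445 to 73623831), an H2A gene, had 8, 7 and 11 counts against 52, 63 and 41 counts. Every crispant library exceeded every mock control library at these 3 copies. The last of the 6 was a second gene named *wu:fe11b02* (ENSDARG00000102806, chromosome 7, 5839128 to 5839856), another H2B copy, with 0, 0 and 0 counts against 25, 14 and 10 counts. Counted against a floor of 3 counts over the mock control group, it was at least 14.3-fold higher in crispants. This copy too passed the filter on low counts through the crispant libraries alone, so that it had to differ.

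Other copies with no counts in mock control libraries were closer to the floor. The H2A gene *zgc:114037* (ENSDARG00000051736, chromosome 25, 35778805 to 35779286) had 0, 0 and 0 counts against 16, 2 and 3 counts and was at least 6.11-fold higher. *si:ch211-113a14.7* had 0 counts in each mock control library and 3, 1 and 0 counts in crispants, which is at the floor. Altogether 3 of the clustered members with counts had 0 in every mock control library. Over all genes with any count that share was 4.31%. One clustered copy, another *wu:fe11b02* (ENSDARG00000078941), had 0 counts in all 6 libraries.

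The most counted clustered genes were those with the smaller differences. *hist2h3c* (ENSDARG00000094154, chromosome 25, 34546698 to 34547197), an H3 gene and the most counted of all, had 203, 195 and 175 counts in mock control libraries and 378, 437 and 249 counts in crispants. In CPM these were 5.62, 5.08 and 6.12 against 10.3, 10.9 and 6.04, so that crispant replicate 3 lay within the mock control range, and the log2 fold change was 0.69 (SE 0.32). The H2B gene *si:ch211-113a14.28* (ENSDARG00000104501, chromosome 7, 73595914 to 73597184) had 2.58, 3.73 and 6.02 CPM against 3.99, 5.82 and 6.14 CPM, a log2 fold change of 0.37 (SE 0.40). *zgc:113983* (ENSDARG00000068941, chromosome 25, 34557395 to 34558700), an H3 gene, had 1.69, 3.07 and 4.30 CPM against 3.61, 8.02 and 3.52 CPM, a log2 fold change of 0.74 (SE 0.49). All 3 overlapped between the groups. Their models, of 500, 1241 and 1306 bases, are longer than the coding lengths of 411 and 375 bases common for their types. The share of *hist2h3c* in clustered H3 counts was 33.4 ± 6.67% in mock control libraries and 25.1 ± 3.61% in crispants (SD, n = 3). By mean CPM a further H2B gene, *zgc:171759* (ENSDARG00000091728, chromosome 25), was among the most counted of its type. It had 0.25, 1.69 and 2.03 CPM against 1.36, 4.32 and 3.23 CPM. Its groups overlapped as well, and the log2 fold change was 1.17 (SE 0.74).

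At the low end of the types were *zgc:173652* (ENSDARG00000070280, chromosome 25, from 35798682), an H2A gene with 35, 23 and 26 counts against 44, 17 and 38 counts and a log2 fold change of 0.04 (SE 0.55), and *ano9a*. The latter is named for anoctamin 9, a membrane protein of the TMEM16 family, and at 4165 bases its model is far longer than a histone gene. It summed to 4.40, 0.81 and 2.80 CPM against 3.04, 0.52 and 2.47 CPM, a log2 fold change of -0.41 (SE 0.75). At the high end, the H2A gene *zgc:110434* (ENSDARG00000093071, chromosome 7, from 6226222) had 5, 1 and 1 counts against 11, 38 and 45 counts, and its log2 fold change was 3.47 (SE 0.86). It passed the filter on low counts through the crispant libraries alone, so that it had to differ. *HIST2H3C (1 of 4)* (ENSDARG00000098970, chromosome 7), an H3 copy, had 0, 24 and 0 counts against 33, 78 and 47 counts. In that gene the second mock control library alone carried the mock control counts.

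The difference was also summed over arrays, which keeps together near-identical copies of the same array. Copies of the same name occur in different arrays too, such as *zgc:113984* and *wu:fe11b02* on both chromosomes, so that array sums are open to the same uncertainty. The first array of chromosome 7 summed to 2.88, 5.11 and 6.02 CPM in mock control libraries and to 20.2, 16.3 and 14.2 CPM in crispants, a ratio of 3.62. The second gave 7.09, 9.74 and 12.04 CPM against 19.7, 23.5 and 19.8 CPM, a ratio of 2.18. On chromosome 25 the first array summed to 15.1, 16.1 and 20.9 CPM against 37.0, 40.4 and 28.7 CPM, a ratio of 2.03. That sum includes *ano9a*, with 4.40, 0.81 and 2.80 CPM against 3.04, 0.52 and 2.47 CPM, so the ratio is not of histone genes alone. The second array of chromosome 25 summed to 2.41, 3.47 and 4.02 CPM against 13.1, 10.1 and 7.08 CPM, a ratio of 3.06. In all 4 arrays every crispant library was above every mock control library. By gene, the groups did not overlap, on the higher side, for 17 of 23, 10 of 12, 16 of 28 and 7 of 16 members with counts in these arrays, beside 6.12% of all genes.

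Within the arrays the ratios of the types were not alike in these sums. The 4 H2B genes in the second array of chromosome 25 summed to 0.58, 1.46 and 1.02 CPM in mock control libraries and to 7.51, 5.47 and 3.81 CPM in crispants, a ratio of 5.50. The 7 H2A genes of the same array summed to 1.16, 1.09 and 1.93 CPM against 2.39, 1.32 and 1.70 CPM, a ratio of 1.29 with overlapping groups. In the second array of chromosome 7 the order was the other way round, with ratios of 4.73 for the 3 H2A genes and 1.77 for the 5 H2B genes. The low H2B ratio leaned on the most counted gene, the low H2A ratio less so. *si:ch211-113a14.28* (ENSDARG00000104501) held 408 of the 516 mock control counts of the H2B genes in the second array of chromosome 7. The other 4 had 108 counts in mock controls and 451 in crispants, a ratio of 3.59 in pooled CPM. *zgc:173652* held 84 of the 139 mock control counts of the H2A genes in the second array of chromosome 25. The remaining H2A genes there had 55 counts in mock controls and 112 in crispants, a ratio of 1.68 in pooled CPM. These sums rest on few reads. The ratio of 5.50 had 21, 56 and 29 counts in mock control libraries, and that of 4.73 had 14, 37 and 14. Differences between types and arrays were not tested.

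**Figure D3:**
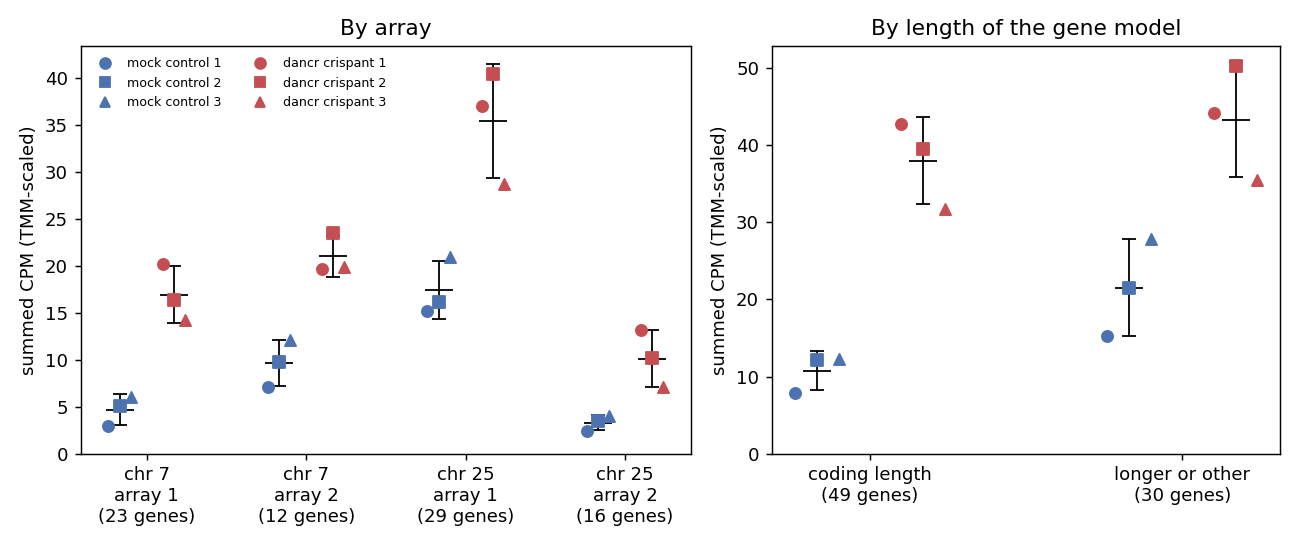
Summed CPM per library of the 4 arrays of clustered members (left) and of clustered gene models of coding length and of longer or other models (right). Each symbol is 1 of the 3 mock control or 3 crispant libraries, the black bars give mean and SD, and in every array and both kinds of model all crispant libraries lie above all mock control libraries.

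Summed ratios were larger for clustered gene models of coding length than for longer or other models. Coding length here means a length held by at least 3 clustered copies of a type, which were 384 and 387 bases for H2A, 375 for H2B and 411 for H3. The 49 clustered models of coding length summed to 7.89, 12.1 and 12.3 CPM in mock control libraries and to 42.7, 39.5 and 31.8 CPM in crispants, a ratio of 3.53. The longer or otherwise different models, 30 without *ano9a*, summed to 15.2, 21.5 and 27.9 CPM against 44.2, 50.3 and 35.5 CPM, a ratio of 2.01. Both sets were higher in every crispant library than in any mock control library. The ratios were 3.58 against 1.98 for H2A, 4.76 against 2.37 for H2B and 2.83 against 1.76 for H3, so the summed ratios had the same order in each type. Medians over single genes did not: in H2B the median log2 ratio was 1.87 for coding-length models and 2.103 for longer ones. The difference between the 2 kinds of model was noticed in these data and was not tested.

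H4 and H1 genes of the same chromosomes, which the chosen domain left out, were higher as well. H4 forms a tetramer with H3 at the centre of the nucleosome, and 27 of its 28 genes lie on chromosomes 7 and 25. These 27 summed to 1.30, 4.06 and 3.50 CPM in mock control libraries and to 13.0, 10.1 and 13.9 CPM in crispants, a ratio of 4.17. In 17 of the 26 with any count every crispant library exceeded every mock control library, beside 6.12% of all genes, and 4 had 0 counts in every mock control library, beside 4.31% of all genes. The 1 H4 gene elsewhere, *zgc:153409* on chromosome 5, had 3, 9 and 3 counts in mock control libraries and 24, 21 and 10 counts in crispants. This is 0.083, 0.23 and 0.11 CPM against 0.65, 0.52 and 0.24 CPM, a ratio of 3.36. Its lowest crispant value was 1.03 times its highest mock control value. By location it belongs with the genes elsewhere, and unlike the summed H2A, H2B and H3 genes there it was higher in crispants. It passed the filter on low counts through the crispant libraries alone, so that it had to differ. Linker histone H1 binds DNA between nucleosomes. The 13 H1 genes of the 2 chromosomes summed to 6.04, 13.7 and 14.6 CPM against 23.8, 30.5 and 16.8 CPM, a ratio of 2.07, and the groups did not overlap. By gene, every crispant library exceeded every mock control library in 6 of the 13, beside 6.12% of all genes. The 7 genes with the H1 domain elsewhere had a ratio of 0.78, with log2 fold changes of -0.55 for *h1f0*, the replacement linker histone of differentiated cells, and -0.44 for *hp1bp3*, a heterochromatin binding protein. Without mock control replicate 3 these were -0.30 and -0.24, and the ratio was 0.91. Those 2 genes were the lowest of the 5 tested. Of the others, *h1fx* was at -0.29 (-0.07 without that library) and *histh1l* at -0.16 (0.17). *shprh*, named for a ubiquitin ligase, was at 0.15 (-0.24). The filter on low counts left 11 of the 27 H4 genes and all 13 H1 genes of the 2 chromosomes in the comparison. Of these, 5 H4 and 3 H1 genes passed through the crispant libraries alone, so that they had to differ. Elsewhere the filter left the 1 H4 gene and 5 of the 7 H1 genes. None of the tested H4 and H1 genes passed the threshold in edgeR's test. DESeq2 called 1 H4 gene (*si:dkey-108k21.12*, ENSDARG00000090893) and 1 H1 gene (*si:dkey-108k21.10*, ENSDARG00000075508), both higher, beside 0.567% of all genes on that side.

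The replacement genes are best compared per length, as FPKM (fragments scaled to gene length and library size). *h2afvb*, an H2A.Z gene, had the highest level, with 622, 787 and 1596 FPKM in the mock control libraries and 731, 794 and 580 FPKM in the crispants. H2A.Z replaces H2A around promoters. The log2 fold change was -0.52 (SE 0.37) and, without mock control replicate 3, 0.01. The second H2A.Z gene, *h2afva*, was lower in level, at 109 ± 49.7 and 81.8 ± 16.9 FPKM (SD, n = 3 each), with a log2 fold change of -0.42 that became 0.04 without that library. The negative values of both genes thus rested on 1 mock control library.

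H3.3, the H3 variant laid down outside S phase, is encoded by 4 members. On chromosome 24, *h3f3b.1* (ENSDARG00000045248) had 711 ± 324 FPKM in mock control libraries and 581 ± 186 FPKM in crispants, a log2 fold change of -0.30 (0.16 without mock control replicate 3). The gene of the same name on chromosome 5 (ENSDARG00000033009) had 402, 465 and 724 FPKM against 331, 368 and 347 FPKM. In this gene all crispants lay below all mock controls, and the log2 fold change was -0.61 (SE 0.28), or -0.29 without mock control replicate 3. The 2 H3.3 genes of chromosome 15 had 367 ± 62.8 and 299 ± 43.6 FPKM (*H3F3B*, ENSDARG00000068436) and 195 ± 96.5 and 118 ± 32.5 FPKM (*h3f3b.1*, ENSDARG00000068434). Their log2 fold changes were -0.29 and -0.73, and -0.14 and -0.22 without that library. All 4 H3.3 genes stayed at or above 89.3 FPKM in every library, whereas the highest FPKM of any clustered member in any library was 21.6. In mean FPKM the order of the replacement genes was *h2afvb*, *h3f3b.1* of chromosome 24, *h3f3b.1* of chromosome 5 and *H3F3B*, and the first 2 overlapped across libraries in both groups, as did the last 2. The middle pair, the *h3f3b.1* genes of chromosomes 24 and 5, overlapped in mock control libraries and were apart in crispants, where the former had 528, 788 and 427 FPKM.

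**Figure D4:**
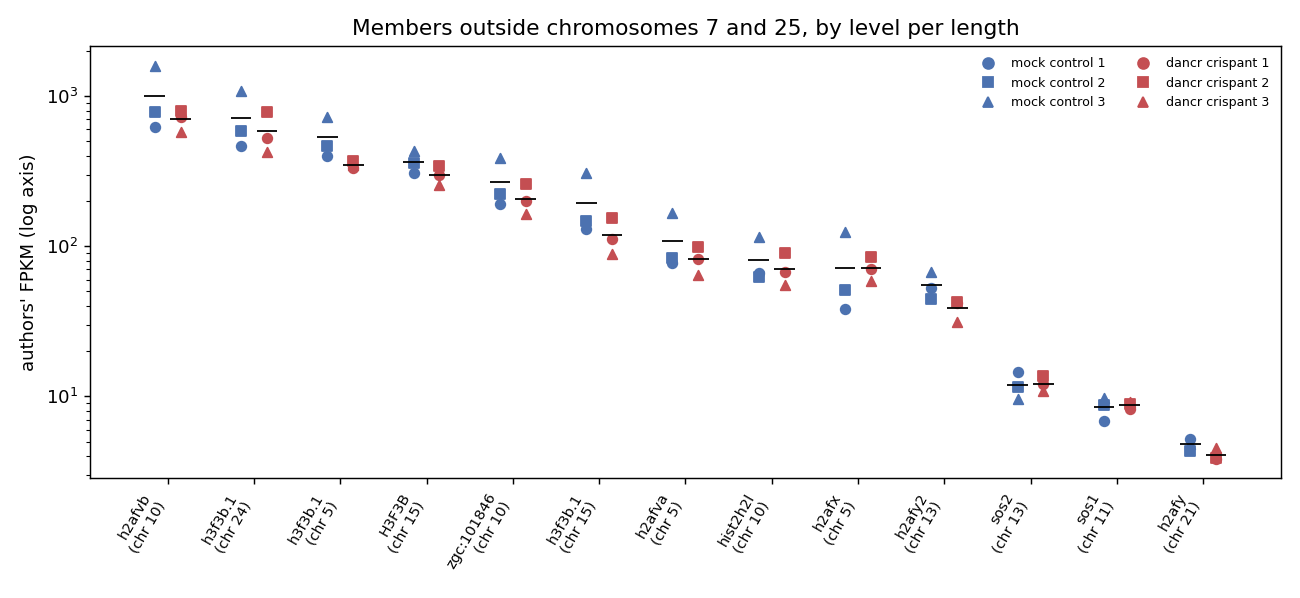
FPKM (log axis) of the 13 tested members outside chromosomes 7 and 25, ordered by their mock control mean, with a symbol for each of the 3 mock control and 3 crispant libraries and black lines for group means. *h2afvb* and the H3.3 genes stand among the highest, and mock control replicate 3 is the highest library for most genes.

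Of the macroH2A genes, whose products carry a large globular domain and mark repressed chromatin, *h2afy2* had 127, 107 and 165 CPM in mock control libraries and 101, 103 and 76.1 CPM in crispants. All crispant libraries were below all mock control libraries, with a log2 fold change of -0.51 (SE 0.23; -0.31 without mock control replicate 3) and an adjusted p of 0.94 in edgeR's test. *h2afy* had a log2 fold change of -0.23 with the same SE. *h2afx*, an H2A.X gene whose product is phosphorylated at DNA breaks, had 24.0, 32.2 and 80.4 CPM against 44.8, 53.5 and 37.7 CPM. Its log2 fold change was -0.01 with all libraries and 0.70 without mock control replicate 3, so its direction depended on that library. Of the 94 members with any count, *h2afy2* and *h3f3b.1* of chromosome 5 were the only 2 with every crispant library below every mock control library. Over all genes with any count that share was 4.67%.

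Neighbouring genes on chromosome 10, *hist2h2l* (H2B) and *zgc:101846* (H2A), lie side by side on opposite strands and had log2 fold changes of -0.20 and -0.37, which without mock control replicate 3 were 0.16 and 0.03. Levels were 81.1 ± 28.9 and 70.9 ± 18.0 FPKM for the first and 267 ± 106 and 208 ± 48.1 FPKM for the second. A newer symbol of *zgc:101846* is *h2ax1*, so *h2afx* may not be the only H2A.X gene among the members. The remaining members elsewhere add little. *sos1* and *sos2*, Ras exchange factors whose N-terminal region folds like a histone, had log2 fold changes of 0.04 and 0.04. A gene listed as *seph* on chromosome 8, described as the centromeric H3 variant CENP-A, had 0 counts in every library. *phc2b*, named for a Polycomb protein but described as H2A and placed on an unanchored scaffold, had between 0 and 15 counts per library, and *si:ch211-190p8.2*, an H2B gene of chromosome 24, had 4 counts in 1 crispant library and 0 in the others.

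Genes for the supply and handling of histones were taken from lists written from general knowledge. Of 39 S phase and DNA replication genes, 0 were called by edgeR, 0 had every crispant library above every mock control library and 5 had every crispant library below, beside 6.12% and 4.67% of all genes with any count. Their median log2 fold change was -0.27, and 0.00 without mock control replicate 3, beside -0.04 over all genes tested. *pcna*, the sliding clamp of DNA polymerase, had 872, 890 and 1603 CPM against 960, 1071 and 757 CPM, a log2 fold change of -0.27 (SE 0.32) that became 0.09 without mock control replicate 3. A copy of *rrm2* (ENSDARG00000020711), a ribonucleotide reductase subunit, had the lowest value at -0.83 (-0.42 without that library), and *orc1*, of the origin recognition complex, the highest at 0.17 (0.20). The clustered histone sums and the replication genes thus lay on different sides of 0 with all 6 libraries, while without mock control replicate 3 the median of the replication genes was at 0.

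For synthesis and 3′ processing of histone mRNA, 21 of 23 listed genes were tested, 0 were called and the median log2 fold change was -0.37, or 0.04 without mock control replicate 3. *slbp*, the stem-loop binding protein, had 88.8, 108 and 197 CPM in mock control libraries and 94.9, 114 and 90.2 CPM in crispants, a log2 fold change of -0.39 (SE 0.31) that became 0.04 without mock control replicate 3. *npat*, the coactivator of replication-dependent histone genes, had 66.9, 58.5 and 47.3 CPM against 52.5, 57.0 and 56.9 CPM, a log2 fold change of -0.05 (SE 0.20; -0.16 without that library). Both overlapped between the groups. *cpsf3*, the endonuclease that cuts histone and other pre-mRNAs at the 3′ end, was at -0.53 (SE 0.21, and -0.35 without that library). Of the 23 listed genes it was the 1 with every crispant library below every mock control library, beside 4.67% of all genes with any count. Next lowest was *snrpf*, an Sm protein, at -0.50 (-0.02). The highest values were 0.21 for *ern1*, a sensor of endoplasmic reticulum stress that stands in the list although no role of it in histone mRNA is known here, and 0.06 for *upf1*, an RNA helicase of mRNA decay. Without mock control replicate 3 both were negative, at -0.16 and -0.08.

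Histone chaperones, which carry histones to and from DNA, gave 0 calls among 26 tested genes and a median log2 fold change of -0.14, or 0.03 without mock control replicate 3. All crispants exceeded all mock controls for 1 of these genes and lay below them for 3 (*hira*, *npm1b* and *tonsl*), beside the same 6.12% and 4.67% of all genes. The 1 gene was *ssrp1b*, a FACT subunit, at 0.82 (0.55 without mock control replicate 3), and *ubn1*, of the HIRA complex, had 0.63 (0.29). The lowest were *npm1b*, a nucleophosmin, at -0.59 (-0.20) and *nasp*, an H3–H4 and H1 chaperone, at -0.47. For *nasp* the value without mock control replicate 3 was 0.06, so its sign depended on that library. Of 5 genes in the linker histone list 4 were tested, and in 1 of them, a copy of *zgc:163061* (ENSDARG00000076766), every crispant library exceeded all mock controls. The same held for the untested gene, *h1m*, beside 6.12% of all genes with any count.

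Noncoding RNA classes that largely lack a poly(A) tail offer values to set beside the clustered histone genes, since both are seen in these libraries only in part. Genes annotated as misc_RNA made up 0.591, 1.02 and 0.655 of every 1000000 counts in the mock control libraries and 3.72, 1.09 and 2.11 in the crispants, without overlap. Annotated rRNA genes had 252, 251 and 124 per 1000000 against 280, 265 and 466, also without overlap. This class was defined to include mitochondrial rRNA genes, so it does not isolate transcripts without a tail. snRNA genes overlapped, with 0.739, 1.24 and 0.603 per 1000000 against 1.45, 1.53 and 0.721, and snoRNA genes overlapped too, with 33.4, 34.9 and 41.7 per 1000000 against 35.1, 42.8 and 36.6. The misc_RNA and rRNA classes were thus higher in every crispant library, but by narrow gaps. The nearest libraries had 1.02 and 1.09 per 1000000 for misc_RNA and 252 and 265 for rRNA. Any link between these classes and the histone values was not tested. Among the 13 marker lists, 4 did not overlap between the groups. The summed FPKM of the myeloid genes *mpx*, *lyz* and *mpeg1.1* was 19.9 to 57.6 in mock control libraries and 8.40 to 10.7 in crispants. That of 3 neural progenitor genes was 255 to 267 against 158 to 218, and that of 3 neuron genes was 127 to 147 against 84.0 to 124. By gene, *mpx*, *lyz*, *sox3* and *neurod1* did not overlap, while *mpeg1.1*, *sox2*, *notch3*, *elavl3* and *stmn1b* did. In mock control replicate 3, *elavl3* (13.1 FPKM) and *notch3* (12.4 FPKM) lay below every crispant library. The 3 oocyte genes found summed to 0.122 to 0.166 FPKM in mock control libraries and to 0.202 to 0.784 FPKM in crispants. Of these, *h1m* alone did not overlap, and it is itself a linker histone gene counted above, while *zp2.1* and *buc* overlapped. What these shifts contribute to the histone values was not tested.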

How the data were processed

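RNA-seq counts of 6 zebrafish libraries, grouped by their labels, were analysed. The authors deposited raw counts per Ensembl gene and FPKM values made from them in a Novogene pipeline with HISAT2 on GRCz10/danRer10. Versions, the counting tool, the annotation release and the handling of reads that match several genes are not given in the sources used here. The authors' group mean signal, log2 fold change and p-value columns, from their own DESeq2 comparison, were not used, and the table has 0 further columns with values of single libraries. Of the identifiers, 26121 of 31953 matched a table of gene names.

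Counts were tested with edgeR 4.0.16 (TMM, filterByExpr with a minimum count of 10, glmQLFit and glmQLFTest, no covariate) in R 4.3.3, Benjamini-Hochberg adjusted over 20812 genes and called at an adjusted p of at most 0.05 and an absolute log2 fold change of at least 1. Standard errors came from the fold change and the F statistic. CPM are counts over TMM-adjusted totals. The floor for 0 counts was 3 counts over a group. Fits were tested on simulated data. Alternatives were DESeq2 1.42.0, its size factors, total counts, TMM without the histone genes, limma-voom (limma 3.58.1), 2 filters, a threshold without a minimum fold change, offsets that take out the length trend of a library, a replicate block, and each library left out. Depths of 33841805 to 40515803 counts limit single copies and the sums over few copies, such as those by type within an array.

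Members and lists were chosen with earlier results of these data known. Named were the 2 members of each type and location with the highest mean CPM (mean count of at least 10). Also named were the largest differences among members with at least 50 counts and groups that do not overlap. To these were added all replacement variants that the gene descriptions name as such and the lowest and highest member of each type. In each related list the 2 highest, the 2 lowest, *slbp*, *npat* and *pcna* were named. The members DESeq2 called, those at 0 in every mock control library and those of odd name were added with their values in view.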

Additional observations from a re-analysis of the deposited data

How the results depend on the processing

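Across all genes, edgeR called 0 at the threshold with all 6 libraries, DESeq2 called 160, and edgeR called 2 with no filter on low counts and 2 with each library's trend on gene length removed. With each library left out in turn edgeR called 0 to 20 genes, 1 without mock control replicate 1 and 20 without mock control replicate 3. Of the core histone genes DESeq2 called 6, while every other alternative and every left-out library gave 0. The summed CPM log2 ratio of the clustered genes kept its sign in all 10 alternatives that give one, between 1.104 and 1.45, the latter with total counts as library size, a scaling that moves the median of all genes by 0.16. The number of clustered genes whose crispant libraries all exceeded the mock control libraries was 56 with total counts, beside 9.92% of all genes. It was 50 with DESeq2 size factors, beside 6.07%, and 50 with TMM without the histone genes, beside 6.17%. These counts were chosen after seeing the data.

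The groups share replicate numbers, but the labels do not say whether the numbers pair the libraries. Deviations of same-numbered libraries correlated at 0.23, -0.06 and -0.10 for numbers 1, 2 and 3, and mock control replicate 3 correlated best with crispant replicate 2, at 0.28. Deviations were taken within groups of 3 libraries, 1 of which stood apart, so they do not settle whether libraries were paired. With the replicate block 0 genes and 0 core histone genes were called.

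Depth limits the single clustered copies, whose median mean count was 15. Scattered genes depended most on 1 library: without mock control replicate 3 their median log2 fold change moved from -0.30 to 0.01. Without a filter the H2B genes elsewhere had a median of 1.66, set by *si:ch211-190p8.2* with its 4 counts.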
